A study of Mus musculus with 8 samples.

Results

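Of 4018 windows of 5 kb that held H3K9me3 tags well above the genome's level before loss of *Setdb1*, 576 (14.3%, 95% exact binomial interval 13.3 to 15.5%) kept their Upstate-type level through day 6. They were chosen on measured values. A window of chromosomes 1 to 19 entered the set of 4018, called base windows here, when its tags at T=0 reached 2 times the median window for both Abcam libraries pooled and 3 times the median for the Upstate-type library. It was then kept when its Upstate-type tags of T=4d and those of T=6d were each 0.8 to 1.25 times those at T=0. Windows with a tag in any library numbered 474385. The largest other class, 2452 base windows (61.0%), lay below 0.8 times at both times and is the comparison used throughout. A further 84 (2.09%) lay above 1.25 times at both times and are called rising, and 906 (22.5%), called mixed, met none of these limits at both times.

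The kept windows split by antibody. At T=6d, 428 of the 576 carried a high tag number with Abcam lot 58206 but not with lot 638466, and in these the lot 58206 tags formed a narrow peak where the Upstate-type tags had a dip. In 47 windows both Abcam lots were high at T=6d. Their averaged profiles peaked with all 3 antibodies, though not every window did. The median change, which the split itself favours, was near 1. In 14 of the 47, many tags lay on positions that the libraries shared. In 91 windows neither Abcam lot was high at T=6d. The median ratio to T=0 was 0.548 with lot 58206 and 0.569 with lot 638466 there, which the split itself also favours. The name "shared" therefore fits only part of the set: already at T=0, 176 windows (30.6%) were at 2 or more times the median in each lot taken alone, and 375 (65.1%) were so with lot 58206 only.

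H3K9me3, trimethylation of lysine 9 on histone H3, marks silent chromatin and is bound by HP1 proteins. Setdb1 is a methyltransferase that places it on dispersed targets such as endogenous retroviruses and imprinted loci, brought there by KRAB zinc finger proteins and their partner Trim28. Other enzymes, Suv39h1 and Suv39h2, place it on the satellite repeats next to centromeres. An ablation time course can thus be asked which regions hold the mark without Setdb1.

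The cells were mouse JM8 embryonic stem (ES) cells of an Agouti C57BL/6N substrain, with tamoxifen-dependent CreERT2 expressed from the *Rosa26* locus and 2 altered *Setdb1* alleles. The study names the genotype *Setdb1 tm1c/tm2* at T=0 and *tm1d* the null allele formed by Cre, while the sample labels call the same step tm1a/tm2 to tm1c/tm2. All cells after T=0 had received 0.8 µM 4′OHT, the active form of tamoxifen, for 48 h, ending at T=2d. The 8 libraries were 1 per antibody and time: an antibody given by Thomas Jenuwein and similar to Upstate 07-442 (lot 4861) before treatment and on days 2, 4 and 6 (T=2d, T=4d, T=6d), and Abcam 8898 lots 58206 and 638466 before treatment (T=0) and on day 6. Libraries from the *tm1c/+* control cells and input chromatin were not analysed here, so effects of 4′OHT, Cre and days in culture cannot be told apart from loss of *Setdb1*. There was no biological replicate within an antibody, and antibodies are not replicates of one another. Tests on 2 libraries compare those libraries, and intervals of ratios cover counting error only. Intervals of shares treat windows as independent, although some lie in clusters. Neither kind covers variation between cultures or libraries.

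Each deposited line was 1 mapped tag of 300 bp, and each library of an antibody held the same number of tags, 6887819 for Upstate-type, 8503927 for lot 58206 and 12194174 for lot 638466. Only the totals were matched: background windows (every T=0 library under 1.5 times its median) held 2326138 Upstate-type tags at T=0 and 2762369 at T=6d. With the libraries scaled to those tags and the limits applied again to all base windows, 359 windows were kept in place of 576. The 359 were chosen anew and need not lie among the 576, and their overlap was not counted. The median window held 25 tags with lot 638466, 16 with lot 58206 and 9 or 10 in the Upstate-type libraries. Libraries differed in how strongly tags were gathered: windows at 3 or more times the median held 35.4 to 43.6% of Upstate-type tags. They held 4.72% of lot 58206 tags at T=0 and 11.1% at T=6d, and only 0.610% and 0.236% of lot 638466 tags. These shares moved in the same direction as the changes of each lot given below, and their part in those changes was not tested.

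With the Upstate-type antibody the kept windows held 30 to 693 tags at T=0, with a median of 62. On days 2, 4 and 6 the medians were 74, 64 and 60. From T=0 on this is 6.2, 8.22, 6.4 and 6 times the median window. The T=0, T=4d and T=6d values fixed the set and are a description. Windows below 0.8 times started lower, at a median of 45 tags, and went to 30, 15 and 12.

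With lot 58206 the kept windows had a median of 57 tags at T=0 (24 to 769) and 87 at T=6d (3 to 796). With lot 638466 the median was 45 at T=0 (20 to 919) and 32 at T=6d (10 to 972). The 2 Abcam lots thus moved in opposite directions over the same windows. In the falling windows both went down, from 46 to 17 tags with lot 58206 and from 58 to 28 with lot 638466.

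**Figure D1:**
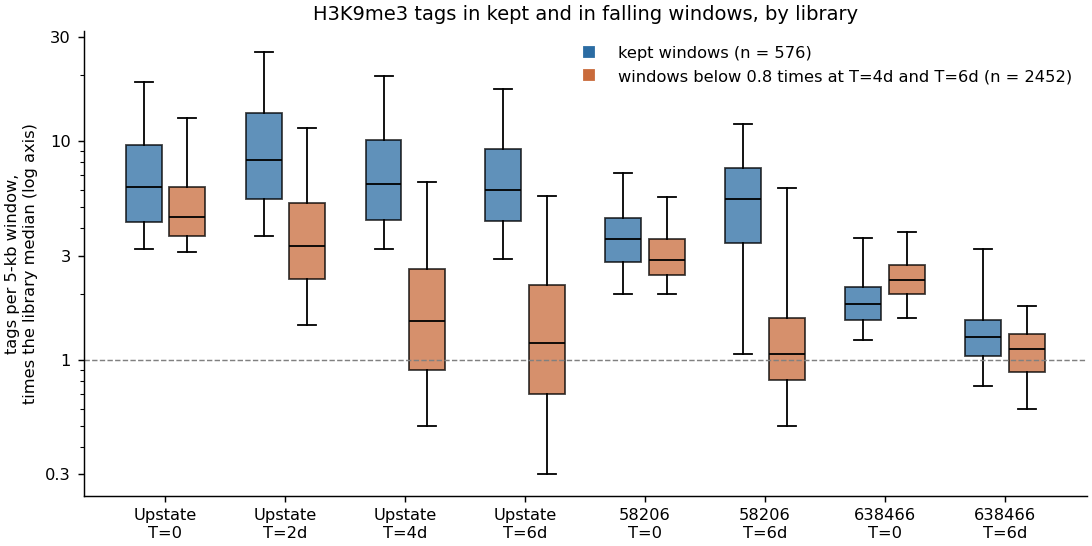
Tags per 5-kb window in each of the 8 libraries, as multiples of that library's median window (log axis), for the 576 kept windows and the 2452 windows below 0.8 times at T=4d and T=6d. Boxes show quartiles with the median, whiskers the 5th to 95th percentiles of windows, and the dashed line the median window. In kept windows the Upstate-type medians are 6.2, 8.22, 6.4 and 6 from T=0 to T=6d. Lot 58206 moves from 3.56 to 5.44 and lot 638466 from 1.8 to 1.28.

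Strong Upstate-type signal was often kept where the Abcam antibodies saw little. Of 41041 windows at 3 or more times the Upstate-type median at T=0, 13762 (33.5%) met the same limits at T=4d and T=6d. The share was 38.0% where pooled Abcam tags were under 1.5 times their median, 25.4% between 1.5 and 2 times, 14.8% between 2 and 3 times, 11.2% between 3 and 4 times and 15.3% at 4 times or more. The kept share was therefore highest outside the base set, and over most of the range it was lower where Abcam signal was higher. These values are those of the selection itself and carry no test.

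The Abcam libraries of T=6d took no part in the selection and serve as the check. Lot 58206 was at 2 or more times its median in 475 kept windows (82.5%, interval 79.1 to 85.5%), against 4.63% of all windows and 466 of the 2452 falling windows. Lot 638466 reached that level in 57 (9.90%, interval 7.58 to 12.6%), against 0.429% of all windows and 57 (2.32%) of the falling ones. Both lots did so together in 47 (8.16%, interval 6.06 to 10.7%), against 0.128% of all windows and 36 (1.47%) of the falling windows. Neither did so in 91 kept windows (15.8%) and in 1965 falling windows (80.1%). The classes that did not fall resembled the kept one: lot 58206 was high in 73.6% of mixed and 78.6% of rising windows, and both lots were high in 5.74% and 14.3%. The check thus set kept windows apart from falling ones more than from the other base windows.

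Window by window, lots were compared between T=6d and T=0 by Fisher's exact test (two-sided; tags of the window against all other tags of the library), calling a change at P below 0.01 and over 1.5-fold. With lot 58206, 38 kept windows were lower (6.60%) and 244 were higher (42.4%), where 2.23% and 2.03% of all 418074 windows tested were so called. The median ratio was 1.47 (quartiles 0.983 and 1.77), against 0.385 in falling windows, 1.33 in mixed, 1.51 in rising and 1 over all windows tested. Of the falling windows 1583 (64.6%) were lower and 108 (4.40%) higher. After Benjamini-Hochberg adjustment of the exact test over all windows, at adjusted P below 0.05, 19 kept windows were lower and 172 higher.

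With lot 638466, 80 kept windows were lower (13.9%) and 0 were higher, where the background was 2.12% lower and 1.19% higher over 446838 windows. The median ratio was 0.714 (quartiles 0.596 and 0.889), against 0.466 in falling windows, of which 1632 (66.6%) were lower, 0.704 in mixed, 0.787 in rising and 1.03 over all windows tested. The adjusted exact test left 12 kept windows lower and 0 higher. The 95% interval of the ratio lay wholly above a 1.5-fold fall in 61 of 576 windows, and in 434 with lot 58206. The lots differed both in where the ratios lay and in the width of the intervals. The upper bound was a median of 2.67 times the lower with lot 638466 and 2.02 times with lot 58206.

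The direction with lot 58206 depended on how windows were cut and picked. With 2-kb windows 879 were kept, and the median ratio was 0.833, with 13.7% higher. When 5-kb base windows were picked on lot 638466 alone, the test of lot 58206 covered 370 kept windows, of which 10.3% were lower and 10.8% higher, with a median ratio of 0.8, and 31.8% were high at T=6d. When picked on lot 58206 alone, 1083 windows were kept, and lot 638466 had 7.76% lower, 0.0923% higher and a median ratio of 0.775. A lot's T=0 tags are part of the selection in the main set, so its ratios are not free of it.

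In single windows, 362 of 576 (62.8%) gained tags by T=6d with lot 58206 and lost tags with lot 638466. Both lots were down in 127 (22.0%) and both up in 57 (9.90%). Called changes were lower with both lots in 20 windows, and in 24 windows the call was higher with lot 58206 and lower with lot 638466. In 258 windows neither lot gave a call. Of the falling windows, 2119 (86.4%) were down with both lots and 1240 were called lower with both. The opposite movement was not particular to kept windows, since it was seen in 507 of 906 mixed windows (56.0%) and 47 of 84 rising ones (56.0%).

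**Figure D2:**
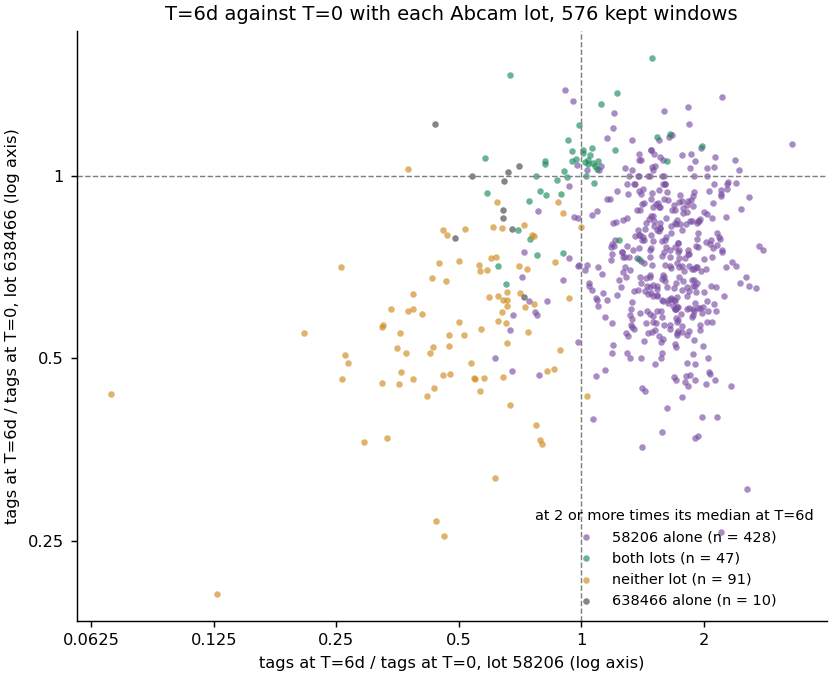
Ratio of tags at T=6d to tags at T=0 in each kept window, with lot 58206 on the x axis and lot 638466 on the y axis (both log axes), coloured by which lot was at 2 or more times its median at T=6d. Most of the 428 windows high with lot 58206 alone lie right of 1 and below 1, the 47 high with both lots gather near 1 on each axis, and the 91 high with neither lie mostly below 1 on both.

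A joint fit of both lots by limma, with the lot as a term, tested 490 of the 576 kept windows among 11889 windows that averaged 2 or more times the library medians. The filter averages T=0 and T=6d, so it removes windows that fell: the other 86 kept windows were not tested, among them the 3 with the strongest fall over both lots. It called 0 kept windows lower and 0 higher at adjusted P below 0.05 and over 1.5-fold, with 1 and 0 at an unadjusted P below 0.05. The background was equally thin, at 0.0505% lower and 0% higher. The median log2 change was 0.09 in kept windows, −0.91 in falling windows and 0.12 over all windows tested. The fit had 1 residual degree of freedom per window, and the median standard error in kept windows was 0.72 on the log2 scale. With a filter of 1.5 times the medians it called 13 of 571 kept windows lower. The fit is therefore no support for a kept level.

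Tags within windows were lined up on the fullest 500 bp of the pooled Abcam tags at T=0, and averaged over windows after leaving out the highest and lowest 5% at each position. In kept windows the Upstate-type signal was low in the middle and high on both sides. At T=0 it was 3.33 times the genome mean at the centre and 4.85 times at 2.5 kb, and at T=6d it was 3.04 and 4.73 times. Lot 58206 was the inverse, a narrow peak of 10.3 times at the centre at T=0 that fell to 1.59 times at 2.5 kb. At T=6d that peak stood at 16.5 times, with 1.24 times at 2.5 kb. Lot 638466 had a low peak of 2.95 times at T=0 and 1.60 times at T=6d.

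Falling windows had the same shape with every antibody. The Upstate-type centre was at 6.06 times the genome mean at T=0 and 1.17 times at T=6d. It was at 6.06 and 2.27 times with lot 58206 and at 4.60 and 1.36 times with lot 638466. The choice of centre favours a peak in the Abcam libraries of T=0, whereas the Upstate-type libraries and those of T=6d had no part in it.

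Counted by window, the Upstate-type tags of T=6d were sparser in the central 1.5 kb than at 2 to 4 kb on either side in 415 of 576 kept windows (72.0%), in 643 of 906 mixed windows (71.0%) and in 1167 of 2452 falling windows (47.6%). At T=0 the counts were 406 (70.5%), 598 (66.0%) and 454 (18.5%). Lot 58206 at T=6d was at 3 or more times its sides in 418 kept windows (72.6%), in 566 mixed windows (62.5%) and in 500 falling windows (20.4%). For lot 638466 at T=6d these were 15 (2.60%), 20 (2.21%) and 159 (6.48%). Mixed windows thus shared the shape of the kept ones.

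**Figure D3:**
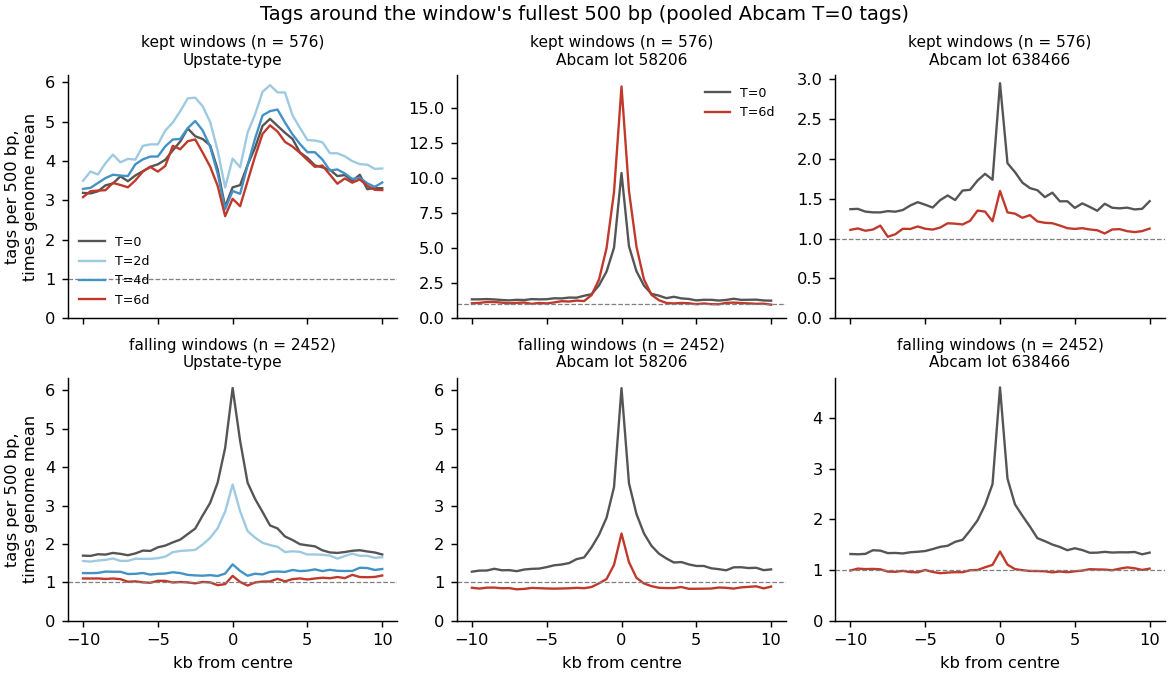
Tags per 500 bp as multiples of the genome mean, within 10 kb of the fullest 500 bp of pooled Abcam tags at T=0, for kept windows (top) and falling windows (bottom) and for each antibody. Lines are times, y axes differ between panels, and the dashed line is the genome mean: kept windows show an Upstate-type dip under a lot 58206 peak, and falling windows a peak in all antibodies that is low or gone at T=6d.

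The 428 windows high with lot 58206 alone at T=6d made up 74.3% of the set and carried this shape most clearly. Their Upstate-type medians were 57 tags at T=0 and 56 at T=6d, their lot 58206 medians 59 and 99, and their lot 638466 medians 41 and 30. Of these, 240 were called higher and 0 lower with lot 58206, and 39 were called lower and 0 higher with lot 638466. These windows were split off by their T=6d Abcam tags, so the counts describe the split. The Upstate-type libraries had no part in that split, and there the centre was at 1.59 times the genome mean at T=0 against 4.63 times at 2.5 kb. At T=6d it was 1.47 against 4.41 times. The T=6d Upstate-type tags were sparser in the centre than at the sides in 366 of the 428 (85.5%).

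The 3 kept windows with the strongest rise over both lots in the same direction were of this kind. At chr1:16090001-16095000 lot 58206 went from 47 to 155 tags, a ratio of 3.30 (95% interval 2.37 to 4.67, Fisher's exact test, adjusted P = 4.56e-11). Lot 638466 went from 38 to 43 tags there, within its counting error, while the Upstate-type tags were 134, 179, 163 and 136. At chr3:89855001-89860000 lot 58206 went from 71 to 157 tags and lot 638466 from 20 to 27. At chr6:119985001-119990000 the tags were 72 and 172 with lot 58206 and 31 and 33 with lot 638466. The rise in these windows was thus that of 1 lot, and the Upstate-type tags at chr6:119985001-119990000 were only 32, 41, 39 and 27.

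The 47 windows high at T=6d with both Abcam lots had the highest Upstate-type medians of the split. Their medians were 148 and 135 tags for Upstate-type at T=0 and T=6d, 98 and 99 by lot 58206, and 131 and 111 by lot 638466. The median ratio to T=0 was 0.988 with lot 58206 (0.578 to 1.98), with 1 window called lower and 4 higher. It was 1.05 with lot 638466 (0.664 to 1.57), with 1 lower and 0 higher. These windows too were split off by their T=6d Abcam tags, so the ratios and calls describe the split. Their averaged profiles peaked at 25.9 times the genome mean at T=0 and 24.7 times at T=6d by the Upstate-type antibody. The peaks were 27.4 and 27.3 times by lot 58206, and 21.8 times at both by lot 638466. Not every window had this peak. The Upstate-type centre was above its sides in 33 of 47 windows at T=0 and 36 at T=6d, and below in 13 and 11. It was at 3 or more times its sides in 13 and 12.

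In 14 of these 47 windows, however, many tags lay on positions that the libraries had in common. No library held more than 1 tag per start, so a stretch with few mappable starts has a ceiling. Whether a ceiling set the tags of these 14 was not tested. The 8 libraries together used 72 to 1061 positions in them, against a median of 462 over all kept windows. Over all kept windows a position was used by a median of 1.05 tags of the 8 libraries, and in these 14 by 2.26 to 6.34 tags. At chr2:98505001-98510000 the 8 libraries had 5397 tags on 851 positions, and T=0 and T=6d of lot 638466 shared 95.4% of the smaller library's positions. Without these 14, both lots were high at T=6d in 33 of 562 windows (5.87%). The ratios and profiles given above for the 47 windows include the 14.

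The windows richest in Upstate-type tags were mostly of this kind. The first, chr2:98500001-98505000, held 693, 878, 784 and 644 Upstate-type tags, 769 and 796 with lot 58206, and 801 and 852 with lot 638466. Its neighbour chr2:98505001-98510000 held 588, 736, 688 and 590, then 657 and 711, then 700 and 727. At chr9:3025001-3030000 the tags were 456, 566, 525 and 435, with 485 and 533 by lot 58206 and 501 and 532 by lot 638466, and chr9:3000001-3005000 held 369, 439, 403 and 362, then 365 and 382, then 376 and 408. Libraries of very different size gave close tag numbers in these 4 windows, all of which are among the 14.

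Of the 5 richest windows, the remaining 1 was unlike them. At chr1:90160001-90165000 the Upstate-type tags were 480, 534, 554 and 446, whereas lot 58206 gave 112 and 87 and lot 638466 gave 205 and 152. Its ratios of 0.777 and 0.741 with the lots were not called (Fisher's exact test, adjusted P = 0.609 for lot 58206).

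The 91 windows high with neither lot at T=6d resembled falling windows by the Abcam antibodies but not by the Upstate-type one. Their Upstate-type medians were 74 tags at T=0 and 69 at T=6d. Lot 58206 went from a median of 35 to 18 tags, with a median ratio of 0.548, 35 windows called lower and 0 higher. Lot 638466 went from 56 to 32, with a median ratio of 0.569, 40 called lower and 0 higher. These too were split off by their T=6d tags. In the profiles the Upstate-type peak was broad, at 6.97 times the genome mean at the centre and 4.63 times at 2.5 kb at T=0, and 6.19 and 4.84 times at T=6d. The Abcam peaks of T=0, 3.70 times with lot 58206 and 3.87 times with lot 638466, were 1.13 and 1.36 times at T=6d.

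The 3 kept windows with the strongest fall over both lots belong here. At chr13:3485001-3490000 the Upstate-type tags were 67, 101, 69 and 57, while lot 58206 went from 47 to 6 (ratio 0.128, 95% interval 0.0446 to 0.299, Fisher's exact test, adjusted P = 4.79e-06). Lot 638466 went from 49 to 10 there (adjusted P = 0.000283, the same exact test). At chr1:15815001-15820000 the Upstate-type tags were 102, 109, 98 and 95, with lot 58206 at 43 and 3 and lot 638466 at 55 and 24. At chr15:96420001-96425000 they were 91, 92, 84 and 78, with lot 58206 at 48 and 14 and lot 638466 at 44 and 16. The Upstate-type level was kept in each while both Abcam lots were lower at T=6d.

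The last 10 windows were high with lot 638466 alone. There lot 58206 went from a median of 39 to 25 tags and lot 638466 from 60 to 54.

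**Figure D4:**
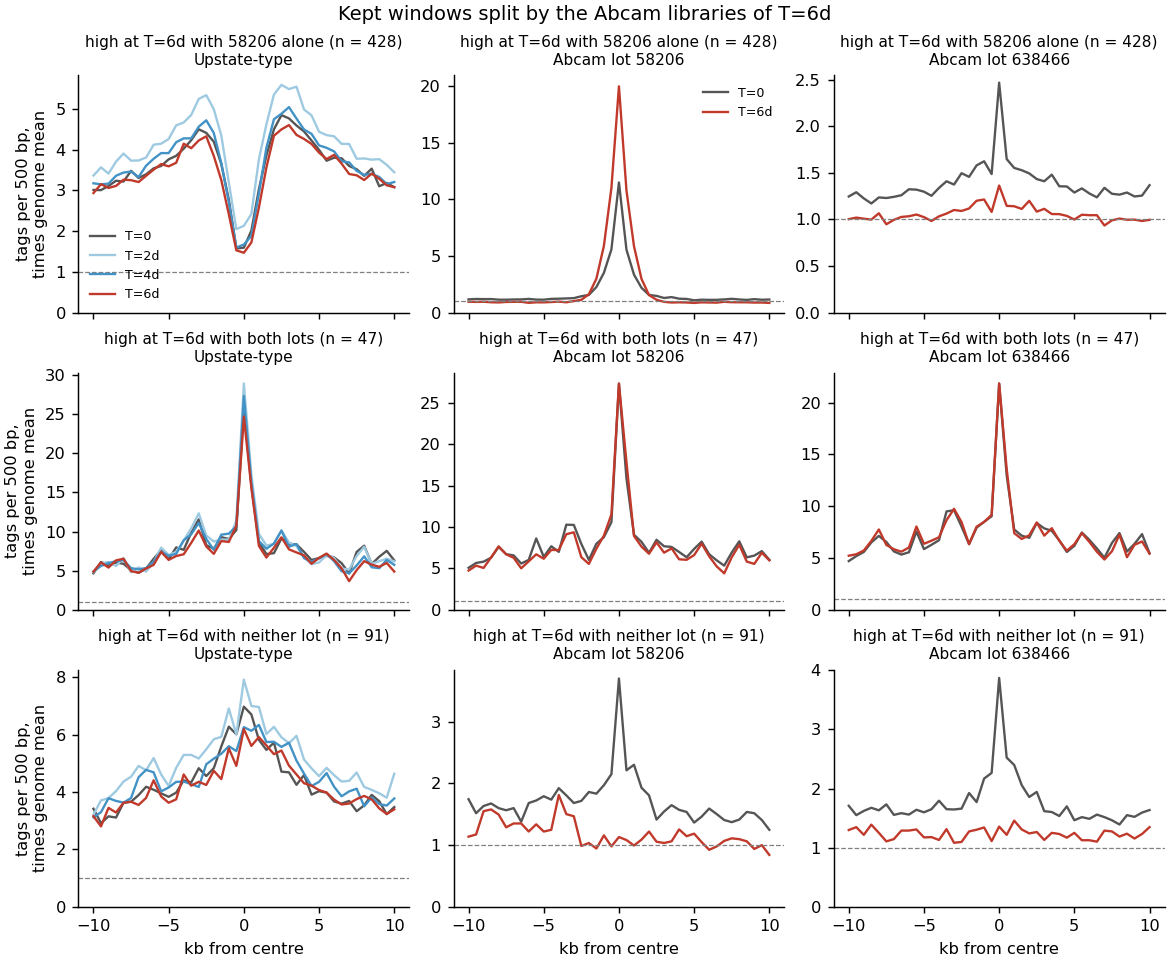
Tags per 500 bp as multiples of the genome mean, within 10 kb of the same centre, for kept windows high at T=6d with lot 58206 alone (top, 428), with both lots (middle, 47) and with neither lot (bottom, 91). Lines are times and y axes differ between panels. The top row shows the Upstate-type dip at the lot 58206 peak. The middle row shows 1 averaged peak in all antibodies at all times, which not every window had. The bottom row shows a broad Upstate-type rise with Abcam peaks at T=0 that are near the genome mean at T=6d.

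At T=2d, the end of 4′OHT treatment, the Upstate-type library also lay outside the selection. It was called lower than T=0 in 1 kept window (0.174%) and higher in 39 (6.77%), against 1.32% and 1.68% of 210213 windows tested by Fisher's exact test. The median ratio was 1.19 (quartiles 1.04 and 1.35), with 453 windows above 1 and 107 below. In falling windows the median was 0.656, with 692 (28.2%) already lower and 3 higher. Mixed windows had a median of 1.14, with 4 (0.442%) lower and 78 (8.61%) higher. Rising windows had a median of 1.51, with 0 lower and 30 (35.7%) higher. The rise at T=2d was thus not particular to kept windows. Since all ratios share the T=0 library, the T=2d ratio is not independent of the T=4d and T=6d limits. The T=2d library also held the most tags in strong windows, 43.6% as given above. Of the 359 windows kept after scaling to background tags, 16.7% were higher at T=2d.

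Few kept windows had a detectable change in where their Upstate-type tags lay between T=0 and T=6d. A chi-square test over the 1-kb parts of a window called 4 of 575 kept windows (0.696%), 31 of 1253 falling windows (2.47%) 10 of 890 mixed windows (1.12%) and 1.64% of 2802 base windows tested. Kept windows held a median of only 62 tags at T=0. On simulated data the test recovered 26 of 137 windows given a 3-fold change, so it missed most changes of that size. Few calls therefore do not show that the distribution was kept. The fullest 1 kb held a median of 38.0% of the tags at T=0 and 38.6% at T=6d. With lot 58206 that share went from 44.7% to 50.2%, and with lot 638466 from 29.5% to 30.8%.

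Kept windows lay in wider Upstate-type domains than falling ones. The neighbouring window on either side held 4.45 and 4.8 times the Upstate-type median at T=0, and 4.6 and 4.7 times at T=6d. At 5 windows away the level was 1.9 and 2.1 times at T=0. The neighbours of falling windows were at 2.2 and 2.3 times at T=0, and those of mixed windows at 4.25 times on both sides, close to the kept ones. With lot 58206 the neighbours of kept windows were at 1.5 times the median at T=0 and 1.12 at T=6d, and with lot 638466 they went from 1.4 times on each side to 1.08 and 1.12. Among 971 neighbours that were not base windows themselves, the median Upstate-type ratio of T=6d to T=0 was 0.976, over the 812 with 20 or more tags. The median Upstate-type level was thus also kept beside the windows. Abcam levels there were near the median only at T=6d. Over these neighbours the median ratio of T=6d to T=0 was 0.864 with lot 58206 (937 with 20 or more tags). With lot 638466 it was 0.8 (965 such neighbours).

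Most kept windows stood alone. Of 576, 515 had no kept window next to them, and the other 61 formed 27 runs of 2 or more. The longest run, chr9:3015001-3040000, had 5 windows and held 1536, 1832, 1716 and 1418 Upstate-type tags, 1600 and 1677 with lot 58206, and 1641 and 1812 with lot 638466. The run of 3 windows at chr11:3075001-3090000 held 834, 746, 819 and 873, then 1603 and 1410, then 2435 and 2392. The run of 3 at chr9:2995001-3010000 held 531, 635, 573 and 515, then 524 and 548, then 541 and 580. All 3 lie at the start of the assembled sequence of their chromosomes, near the centromere of these one-armed chromosomes. The windows of both chromosome 9 runs are among the 14 on shared positions, and those of the chromosome 11 run are not.

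Joined over distances of up to 100 kb, 184 kept windows formed 66 clusters. The biggest had 14 windows at chr8:26740001-26945000. Its Upstate-type tags summed to 1735, 2283, 1853 and 1711, while lot 58206 went from 506 to 343 and lot 638466 from 810 to 676. A further 13 windows stood at chr8:27065001-27275000, with 1255, 1606, 1364 and 1189 Upstate-type tags, 551 and 382 with lot 58206, and 789 and 682 with lot 638466. The 10 windows at chr11:3000001-3200000 were nearly level with all antibodies, at 2384, 2197, 2407 and 2516, then 4080 and 3793, then 6207 and 6168. These clusters were ranked by size after the data were seen.

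The kept share of base windows varied by chromosome. It was highest on chromosomes 19 (26 of 101, 25.7%), 8 (94 of 442, 21.3%) and 11 (64 of 308, 20.8%), and lowest on chromosome 13 (10 of 178, 5.62%). Chromosomes 8 and 11 hold the clusters just named. The first 5 Mb of chromosomes held 48 kept windows (8.33%), against 6.53% of falling, 5.63% of mixed and 3.85% of all windows. Only 2 kept windows (0.347%) touched a stretch of 1 kb or more without any tag, against 6.08% of falling windows and 7.06% of all. Mixed windows were again close to kept ones, with 5 of 906 (0.552%) touching such a stretch. Gene and repeat annotation of the mm9 build was not used here, so windows are given by position.

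**Figure D5:**
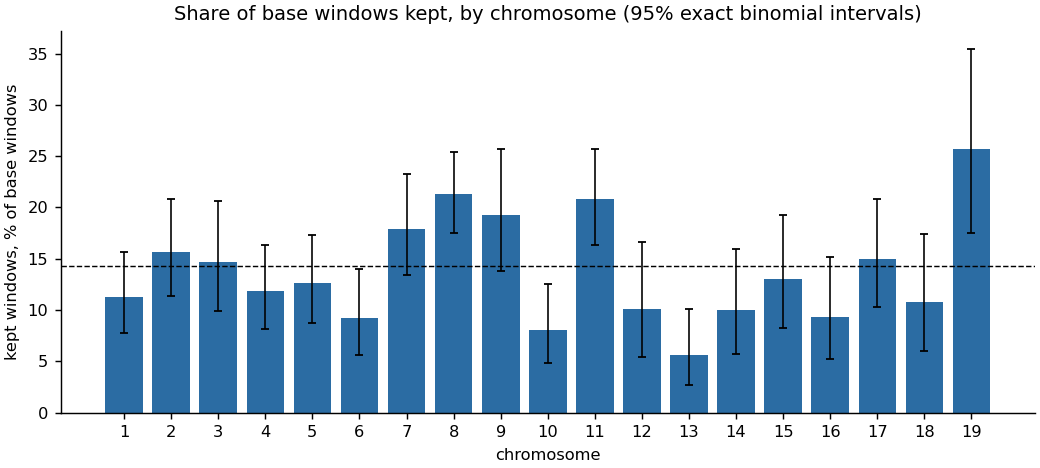
Kept windows as a percentage of the base windows of each chromosome (bars, axis from 0), with 95% exact binomial intervals. The intervals treat windows as independent, although some lie in clusters, and cover no variation between libraries. The dashed line is the share over all chromosomes, 14.3%, and the shares run from 5.62% on chromosome 13 to 25.7% on chromosome 19.

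The limits of the selection cut through a continuum. Just inside the lower limit at T=6d, chr2:164245001-164250000 had 24 tags against 30 at T=0, a ratio of 0.8. Just outside it, chr4:98395001-98400000 had 99 against 124, a ratio of 0.798. Just inside the upper limit chr5:31500001-31505000 had 65 against 52, and just outside chr7:88485001-88490000 had 139 against 111. In 44 kept windows the T=6d ratio lay within 0.02 of the lower limit and in 11 within 0.02 of the upper. Only 272 of 576 had a 95% interval of the Upstate-type T=6d ratio wholly above a 1.5-fold fall. The region used as a control in the study's ChIP-seq display was not kept by this rule. Its window, chr4:3015001-3020000, held 90, 88, 68 and 62 Upstate-type tags and so lay among the falling windows. The Upstate-type ratios, 0.756 at T=4d and 0.689 at T=6d, were falls of less than 1.5-fold and were not tested. The study counted changes over 1.5-fold, so the window would not count as changed at that size. There lot 58206 gave 77 and 72 tags and lot 638466 gave 91 and 100, neither of them called.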

How the data were processed

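Each of 8 ChIP-seq libraries was deposited as a list of tag positions on mm9 with no score, 1 interval of 300 bp per line. Per the methods, the authors mapped tags uniquely with at most 1 mismatch and brought libraries of one antibody to equal tag numbers. The aligner is not given in the sources used here. Midpoints were counted in 5-kb windows of chromosomes 1 to 19. Medians were taken over windows with a tag in any library. Fisher's exact test covered windows with 20 or more tags in the 2 libraries together. limma 3.58.1 (R 4.3.3) was fitted to log2(CPM of tags + 0.5) of the 4 Abcam libraries with the lot as a term. Deviations of the T=0 and T=6d libraries of lot 58206 from the means of their times had r = 0.651 over 11889 windows. Profiles used Python 3.11.15 and scipy 1.17.1. Ratio intervals are exact (Clopper-Pearson). All tests were run on simulated data with known changes, of which the profile test recovered the fewest. The windows, classes and tests were chosen with earlier results of these data known. Named windows were the 5 with most Upstate-type tags, the 3 longest runs, the 3 largest falls and rises over both lots, those next to the T=6d limits and the study's control window. The reference supplied is GRCm38, so no sequence, gene or repeat was read at these mm9 positions. Alternatives covered window size and start, limits, scaling, the lot behind base windows, the tag minimum, pseudocount and filter. Shares of windows at 2 times the median at T=6d under these, the split by lot and the set without shared positions were added after seeing the data.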

Additional observations from a re-analysis of the deposited data

Results flagged for a closer look

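Over the same kept windows the 2 Abcam lots moved apart between T=0 and T=6d. In 362 of the 576 windows the tags were more numerous at T=6d with lot 58206 and fewer with lot 638466, while the reverse was seen in 17. The median ratios were 1.47 and 0.714. Each lot had 1 library per time, so the difference between lots was not tested. When base windows were picked on lot 638466 alone, the median ratio of lot 58206 was 0.8.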

How the results depend on the processing

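With 2-kb windows 879 were kept. The median ratio of lot 58206 then reversed to 0.833 with 13.7% higher, that of lot 638466 was 0.65, and 15.2%, 45.1% and 20.1% were high at T=6d with both lots, lot 58206 and lot 638466. At T=2d 0% were lower and 3.23% higher, with a median of 1.15. With 10-kb windows 309 were kept, the lot 58206 median was 1.41, 24.3% were lower with lot 638466 and 0% lower at T=2d. Windows shifted by 2.5 kb gave 1.16% changed profiles. Limits of 0.9 to 1/0.9 kept 154, with medians of 1.51 for lot 58206 and 1.14 at T=2d, 0% lower at T=2d and 1.31% changed profiles. Limits of 1/1.5 to 1.5 kept 1223 and limma called 1 of them lower.

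An Abcam limit of 3 times the median kept 100. Of these 0% were lower with lot 58206 and 7% with lot 638466 (median 0.830), 0% were lower at T=2d (median 1.24), 2% had a changed profile, and 33% and 34% were high at T=6d with both lots and with lot 638466. Scaling to background tags kept 359, with 26.5% lower and a median of 0.658 for lot 638466, and 0% lower, 16.7% higher and a median of 1.28 at T=2d. Base windows picked on the other lot reversed lot 58206 to a median of 0.8, with 10.3% lower, 10.8% higher and 31.8% high at T=6d. For lot 638466 this gave 7.76% lower, 0.0923% higher, a median of 0.775 and 5.45% high. The cause of neither reversal was tested.

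At adjusted P below 0.05, 3.30% were lower with lot 58206, 2.08% lower with lot 638466, and 0% lower and 2.08% higher at T=2d. Parts of 500 bp gave 0% changed profiles. In limma 13 kept windows were lower with a filter of 1.5 times the medians, 1 with no filter beyond 1 tag and 2 with the Upstate-type libraries added. Without the lot as a term (no replicate block) 0 were lower and 0 higher, as with it. The median log2 ratio over both lots, 0.02, became −0.48 without lot 58206 and 0.56 without lot 638466. Without the 14 windows on shared positions, 5.87% were high with both lots. The other 93 values tried kept their direction and were within 1.5 times, or within the interval of the main median; among these, higher calls went from 42.4% to 29.9% with lot 58206 at adjusted P and from 6.77% to 4.55% at T=2d with limits of 0.9. With lot 638466 the median kept window at T=6d had 32 tags, 1.28 times that library's median window. The parts of enrichment and of depth in the results of this lot were not tested.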
